A study of Mus musculus with 40 samples.

Results

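The enzymes that write and erase DNA methylation were followed at the transcript level in mouse CD4 T cells. The group comprised 7 genes chosen by name: Dnmt1, Uhrf1, Dnmt3a, Dnmt3b, Tet1, Tet2 and Tet3. All 7 were among the 21950 genes of the table, and all 7 passed the filter on low values in every fit.

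Bulk RNA-seq libraries of 8 groups, with 3 libraries each, were analysed. Conventional T cells (Tconvs) and thymus-derived regulatory T cells (tTregs, labelled nTreg) came from spleens of Foxp3-GFP reporter mice, 2 to 4 months old, on a C57BL/6 background, and were either resting or activated. In vitro induced Tregs (iTregs) were made from naive, Foxp3- CD4 T cells of mice aged 6 weeks, by 4 days of culture with plate-bound anti-CD3 and anti-CD28, IL-2 and 2 ng per ml TGF-β. They were then sorted for the Foxp3 reporter, rested for 1 day with IL-2, and taken as resting iTregs or restimulated through CD3 and CD28. Restimulation was done alone, with an ORAI inhibitor, which blocks store-operated calcium entry and was taken to be CM-4620, a blocker that the study sets beside CsA for iTreg transcripts, as the labels name no compound, or with CsA (cyclosporin A), which blocks calcineurin. The 4 iTreg groups therefore shared 4 days of culture with TCR stimulation and TGF-β that the Tconv and tTreg groups did not have, and their donors were younger. The Tconvs and tTregs were sorted as well, and the activated ones had also met TCR stimulation. Culture, donor age and cell type cannot be told apart in any comparison between iTregs and the other cells. The length of activation before the libraries were made is not given in the sources used here.

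DNA methylation in mammals is held by a division of labour. Dnmt1 copies the methyl mark onto the new strand behind the replication fork, and Uhrf1 is the adaptor that finds hemimethylated CpG sites and brings Dnmt1 to them. Dnmt3a and Dnmt3b place methyl groups on DNA that carried none, and the Tet enzymes oxidize methylcytosine to hydroxymethylcytosine and beyond, from where the mark can be lost. In Tregs this balance is known for the conserved noncoding regions of the Foxp3 locus, whose demethylation goes with lasting Foxp3 expression and is known to be more complete in tTregs than in iTregs. Transcript levels say nothing directly of enzyme amount, enzyme activity or methylation, none of which was measured in these libraries.

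Values are normalized counts, that is, gene counts divided by a size factor for each library, as deposited. Each library held 5256800 to 15685234 reads on genes, with the tTreg groups the shallowest. A floor of 3 reads was worth 2.12 to 5.45 normalized counts, and every member was above it in every library. The fewest reads behind any value were 21 for Uhrf1, in a resting Tconv library, 24 for Dnmt3b and 27 for Tet1. Dnmt3b and Tet1 were the least precise members. The identity of the cells was checked on fixed markers. Foxp3 lay between 9.65 and 11.3 normalized counts in resting Tconvs, between 7218 and 7767 in resting tTregs and between 1178 and 1338 in resting iTregs. Of the other Treg markers, Il2ra, Ctla4, Tnfrsf18 and Lrrc32 were also higher in resting iTregs than in resting Tconvs. Ikzf2 and Nrp1 were not, with means of 167 and 320 in resting iTregs against 195 and 653 in resting Tconvs. Their means in resting tTregs were 9403 and 3964. Summed B cell markers reached at most 143 normalized counts, myeloid markers 119, CD8 markers 236 and NK markers 308, against at least 15661 for the T cell markers. The NK sum was highest in activated Tconvs, at 281 to 308, against 33.4 to 40.1 in resting Tconvs. It was almost wholly Eomes, which activated T cells also express, and the NK receptors Ncr1 and Klrb1c were at most 1.42 and 2.12 normalized counts there. No source used here says whether the 3 libraries of a group came from separate mice or cultures, and p-values measure the spread between these libraries.

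The members lie on 7 chromosomes in the GRCm38 build. By the GENCODE annotation, Dnmt1 spans chr9:20907209-20959888 on the minus strand and Uhrf1 spans chr17:56303321-56323486 on the plus strand. Dnmt3a lies at chr12:3806007-3914443 and Dnmt3b at chr2:153649450-153687730, both on the plus strand. Tet1 lies at chr10:62804570-62908996, Tet2 at chr3:133463679-133545139 and Tet3 at chr6:83362373-83459084, all on the minus strand. The library type does not mark strand, so reads of overlapping genes on opposite strands cannot be separated. This touches 0.799% of the exon bases of Dnmt3a, which overlap Dnmt3aos, and 0.255% of those of Tet2, which overlap Gm42567, and no exon base of the other members.

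Promoters of Dnmt1, Uhrf1 and Tet3 are shown here as RefSeq gives them for GRCm38.p6, from 250 bases before to 50 bases after a start site. Dnmt1 and Uhrf1 are the members whose levels moved most closely together, with Pearson's r of 0.98 over the 24 libraries on the log2 scale, and Tet3 is the member that ran most opposite to Dnmt1, with r of −0.96. These r values describe libraries that share groups, depth and scaling. Capitals mark the E2F words TTTCCCGC, TTTCGCGC, TTTGCCGC and TTTGGCGC, searched on both strands.
Dnmt1, chr9:20952574-20952873, minus strand: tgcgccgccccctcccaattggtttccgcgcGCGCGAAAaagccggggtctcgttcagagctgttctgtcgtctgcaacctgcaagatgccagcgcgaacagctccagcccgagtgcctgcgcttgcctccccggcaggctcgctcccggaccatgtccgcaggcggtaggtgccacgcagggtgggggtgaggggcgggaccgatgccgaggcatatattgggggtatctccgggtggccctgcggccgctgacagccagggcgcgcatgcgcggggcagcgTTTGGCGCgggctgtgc
Uhrf1, chr17:56304063-56304362, plus strand: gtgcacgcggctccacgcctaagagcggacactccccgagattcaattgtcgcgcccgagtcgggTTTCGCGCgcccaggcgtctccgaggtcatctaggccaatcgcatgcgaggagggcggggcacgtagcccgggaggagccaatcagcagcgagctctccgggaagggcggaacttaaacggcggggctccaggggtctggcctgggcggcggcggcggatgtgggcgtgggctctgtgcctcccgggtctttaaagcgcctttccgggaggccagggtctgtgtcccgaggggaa
Tet3, chr6:83441629-83441928, minus strand: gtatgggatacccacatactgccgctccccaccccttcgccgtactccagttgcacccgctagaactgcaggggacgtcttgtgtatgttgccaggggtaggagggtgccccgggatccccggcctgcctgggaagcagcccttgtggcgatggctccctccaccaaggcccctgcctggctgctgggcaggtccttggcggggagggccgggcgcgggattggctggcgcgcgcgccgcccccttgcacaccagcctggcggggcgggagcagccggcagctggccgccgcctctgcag
E2F factors are transcription factors known for driving genes of DNA replication. In the Dnmt1 promoter 1 such word begins 219 bases before the start base and another begins 33 bases after it. Uhrf1 has 1 word, which begins 185 bases before its start base. The other promoters of the members in this table, 3 alternative ones of Dnmt1 and Uhrf1 included, hold none, and of 32851 mouse promoters of this length 2.26% hold at least 1. The AP-1 word TGANTCA, present in 7.81% of promoters, was found in no promoter of a member. The NFAT word TGGAAA, present in 21.4%, was found only in the most upstream Dnmt1 promoter, chr9:20959839-20960138. The Dnmt1 and Uhrf1 promoters printed above hold 33 CpG sites each and that of Tet3 holds 22, against a median of 7 over all promoters. A matching word is a match of letters, not a measured site of binding.

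**Figure D1:**
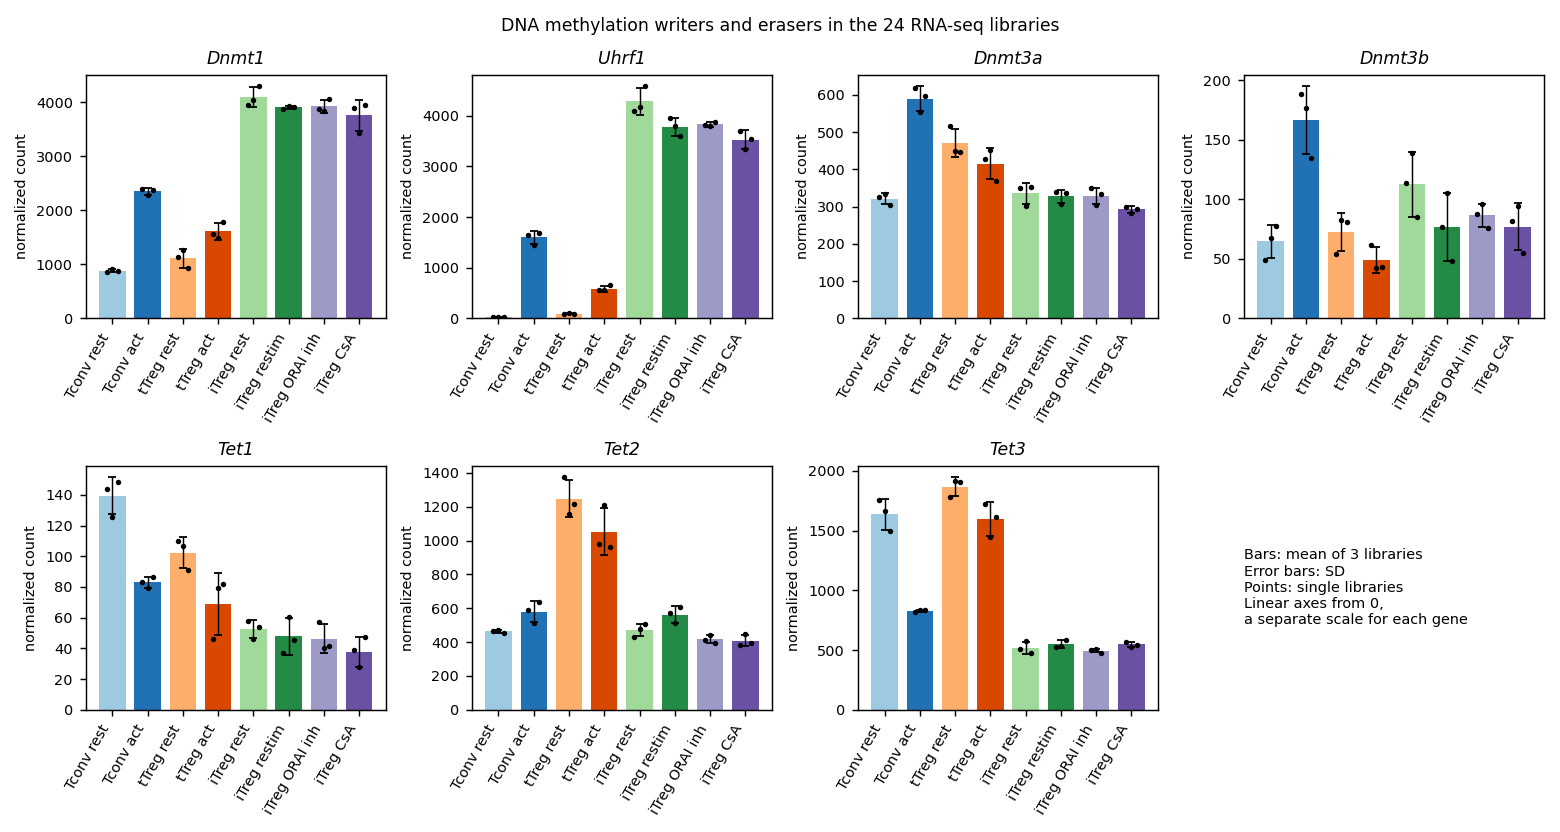
Normalized counts of the 7 members (vertical axes, linear, from 0, with a scale of its own for each gene) in the 8 groups; bars are means of 3 libraries, error bars SD and points single libraries. Dnmt1 and Uhrf1 stood at 3342 or above in every iTreg library, Tet2 stood at 963 or above in tTreg libraries and at 636 or below elsewhere, and Tet3 was at 587 or below in every iTreg library.

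Resting cells of the 3 kinds were compared first, which asks how iTregs differ from tTregs and from Tconvs. Resting iTregs carried far more transcript of the maintenance genes Dnmt1 and Uhrf1 than either other resting cell, and less Tet1 and Tet3. Tet2 separated the cells differently, since it was high in resting tTregs and at a similar, lower level in resting iTregs and resting Tconvs. Bulk values cannot tell more cells of a kind from more RNA per cell. Among the 7 members, 6 passed the thresholds between resting iTregs and resting tTregs, 3 higher and 3 lower in iTregs, where 63.4% of the 11495 genes tested passed, 32.3% higher and 31.1% lower. To pass, a gene needed a Benjamini-Hochberg adjusted p below 0.05 in limma and a log2 fold change beyond 0.5 in either direction. Between resting iTregs and resting Tconvs 5 members passed, 3 higher and 2 lower, against 63.6% of all genes (32.8% higher, 30.8% lower). Between resting tTregs and resting Tconvs 3 members passed, all higher in tTregs, against 38.6% of all genes (20.5% higher, 18.2% lower). With 7 genes these counts stand near that background and say little by themselves.

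Uhrf1, the adaptor of maintenance methylation, had 21.6, 33.8 and 33.4 normalized counts in the resting Tconv libraries. In resting tTregs it had 89.8, 104 and 92.3, and in resting iTregs 4084, 4173 and 4582. The 3 groups did not overlap, and the lowest iTreg library stood far above every library of the other resting cells. The log2 fold change of resting iTregs was 5.48 ± 0.15 (SE) over resting tTregs, a 44.5-fold difference with an adjusted p of 2.94e-13. Over resting Tconvs it was 7.16 ± 0.15, or 143-fold, with an adjusted p of 8.97e-15. The resting Tconv level behind this fold was low, with 21 reads in its lowest library. Resting tTregs in turn had 3.2-fold more Uhrf1 than resting Tconvs, with a log2 fold change of 1.68 ± 0.15 and an adjusted p of 2e-07.

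Dnmt1, the maintenance methyltransferase, followed the same order over a narrower range. Resting Tconv libraries had 863, 909 and 883 normalized counts, resting tTreg libraries 1138, 1276 and 931, and resting iTreg libraries 3944, 4044 and 4299.9. The iTreg libraries again did not overlap those of the other cells. The log2 fold change was 1.89 ± 0.10 over resting tTregs (adjusted p = 3.49e-10) and 2.21 ± 0.10 over resting Tconvs (adjusted p = 4.72e-11). Between resting tTregs and Tconvs it was 0.32 ± 0.10, which passed the adjusted p (0.0154) but not the fold threshold.

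Genes of DNA replication moved with these members. All 20 S phase genes of a fixed list were higher in resting iTregs than in resting tTregs, with a median log2 fold change of 3.60, and all 20 were higher than in resting Tconvs, with a median of 3.53, where 32.3% and 32.8% of all genes were higher. The 10 genes of the G2 and M phases were higher as well, with medians of 7.77 and 7.56, where the median of all genes tested was 0.02 in each comparison. Resting iTregs, taken 1 day after induction ended, had a median of 3198 to 3343 normalized counts per library over the G2 and M list. Resting tTregs had a median of 12.5 to 16.3 and resting Tconvs of 12.2 to 17.0. Their part in the Dnmt1 and Uhrf1 levels was not tested. Between resting tTregs and resting Tconvs the lists did not share the direction of Uhrf1 as a whole. Of the S phase genes 1 was higher and 5 were lower in tTregs, with a median of −0.11, and of the G2 and M genes 4 were higher and 1 was lower, with a median of 0.08.

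**Figure D2:**
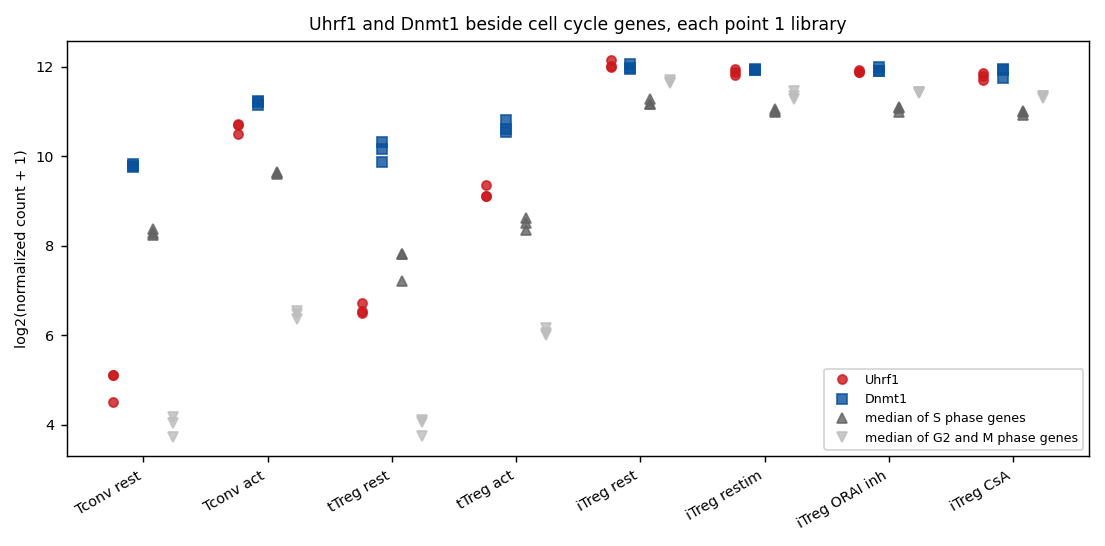
Level of Uhrf1, Dnmt1 and the median of 2 fixed cell cycle lists (vertical axis, log2 of the normalized count plus 1) in each group; each point is 1 library. All 4 series were highest in the 4 iTreg groups. Uhrf1 ran from 21.6 to 4582 normalized counts, and the median of the G2 and M list from 12.2 to 3343.

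The de novo methyltransferases differed less. Dnmt3a had 325, 334 and 305 normalized counts in resting Tconvs, 515, 450.3 and 446 in resting tTregs, and 351, 303 and 354 in resting iTregs. The tTreg libraries stood above all others, whereas the iTreg and Tconv libraries overlapped. Dnmt3a was 1.46-fold higher in resting tTregs than in resting Tconvs (log2 fold change 0.55 ± 0.10, adjusted p = 0.000403), and without resting tTreg replicate 1 the value of 0.48 fell short of the fold threshold. Resting iTregs and resting Tconvs differed by 0.06 on the log2 scale, with a 95% interval from −0.16 to 0.28. Against resting tTregs the iTreg value was −0.49 ± 0.10 (adjusted p = 0.00055), just inside the fold threshold, and it crossed the threshold after quantile normalization (−0.53) and in 4 of 6 fits that left out a library, at values from −0.53 to −0.52.

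Dnmt3b was measured on few reads. It had 49.4, 67.5 and 77.2 normalized counts in resting Tconvs, 54.4, 83.0 and 80.9 in resting tTregs, and 114, 139 and 85.0 in resting iTregs. The iTreg libraries were all above the others, although the lowest of them was close to the highest tTreg library. The log2 fold change of resting iTregs was 0.79 ± 0.24 over resting Tconvs (adjusted p = 0.00868) and 0.62 ± 0.24 over resting tTregs (adjusted p = 0.0308). The second of these calls rested on single libraries. It was 0.43 without resting tTreg replicate 1, 0.60 without resting iTreg replicate 1 and 0.45 without resting iTreg replicate 2, with adjusted p of 0.14, 0.0709 and 0.135. After quantile normalization neither passed, at 0.50 with adjusted p of 0.0735 against Tconvs and 0.0753 against tTregs.

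Among the erasers, Tet3 was lower in resting iTregs than in both other resting cells. It had 1754, 1665 and 1496 normalized counts in resting Tconvs, 1779, 1918 and 1908 in resting tTregs, and 510.1, 572 and 473 in resting iTregs. The highest iTreg library was below every library of the other resting cells by a wide margin. Tet3 was 3.61-fold lower in resting iTregs than in resting tTregs (log2 fold change −1.85 ± 0.09, adjusted p = 1.14e-10) and 3.16-fold lower than in resting Tconvs (−1.66 ± 0.09, adjusted p = 3.11e-10). Resting tTregs and Tconvs differed by 0.19 ± 0.09, which did not pass (adjusted p = 0.0885).

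Tet2 set the tTregs apart. Resting Tconv libraries had 463, 473 and 456 normalized counts, resting iTreg libraries 432, 478 and 506, and resting tTreg libraries 1373, 1157 and 1215. Every tTreg library was above every library of the other cells, while Tconv and iTreg libraries overlapped. Resting tTregs had 2.68-fold more Tet2 than resting Tconvs (log2 fold change 1.42 ± 0.11, adjusted p = 4.87e-08), and resting iTregs had 2.64-fold less than resting tTregs (−1.40 ± 0.11, adjusted p = 2.13e-08). Resting iTregs and resting Tconvs differed by 0.02, with a 95% interval from −0.21 to 0.26.

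Tet1 ran from 126 to 148 normalized counts in resting Tconvs, from 91.1 to 109.8 in resting tTregs and from 46.4 to 58.0 in resting iTregs. No library of one group reached the range of another. Tet1 was lower in resting iTregs, by −0.95 ± 0.20 against tTregs (adjusted p = 0.00048) and by −1.39 ± 0.20 against Tconvs (adjusted p = 1.25e-05). The tTreg and Tconv levels differed by −0.44 ± 0.20 on the log2 scale, which did not pass (adjusted p = 0.0726).

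**Figure D3:**
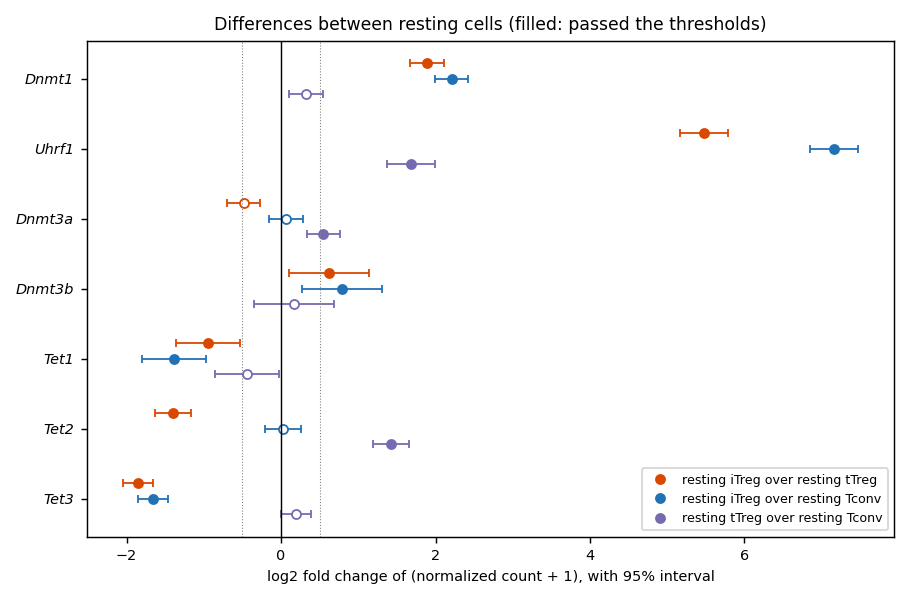
Log2 fold changes of the 7 members (horizontal axis) in 3 comparisons of resting cells, with 95% intervals; filled points passed the adjusted p of 0.05 and the absolute log2 fold change of 0.5, which dotted lines mark. Resting iTregs were higher in Uhrf1 and Dnmt1 and lower in Tet3 against both other cells, whereas Tet2 was lower only against resting tTregs, at −1.40.

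Levels of the 3 Tet genes were set side by side as normalized counts per kilobase of annotated exon. Their sum was 192.5 ± 2.36 (SD, n = 3) in resting tTregs, 134.6 ± 7.88 in resting Tconvs and 62.4 ± 2.90 in resting iTregs. Libraries of the 3 groups did not overlap, at 190.4 to 195 in resting tTregs, 126 to 142 in resting Tconvs and 59.9 to 65.6 in resting iTregs. Tet3 made up 72.8% ± 1.62 of the sum in resting Tconvs, 58.1% ± 3.08 in resting tTregs and 49.7% ± 3.40 in resting iTregs. The share of Tet2 was 20.5% ± 1.04 in resting Tconvs, 38.4% ± 2.96 in resting tTregs and 44.8% ± 3.22 in resting iTregs, so that iTregs had the larger Tet2 share at a lower Tet2 level. Tet1 was 3.44% to 6.72% of the sum in resting cells. Shares depend on which exon length is used. With the longest transcript in place of all exons the Tet2 shares became 24.1%, 43.2% and 50.1%, in the same order. In resting iTregs the order of Tet2 and Tet3 turned with it, since Tet3 then made up 46.3%.

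**Figure D4:**
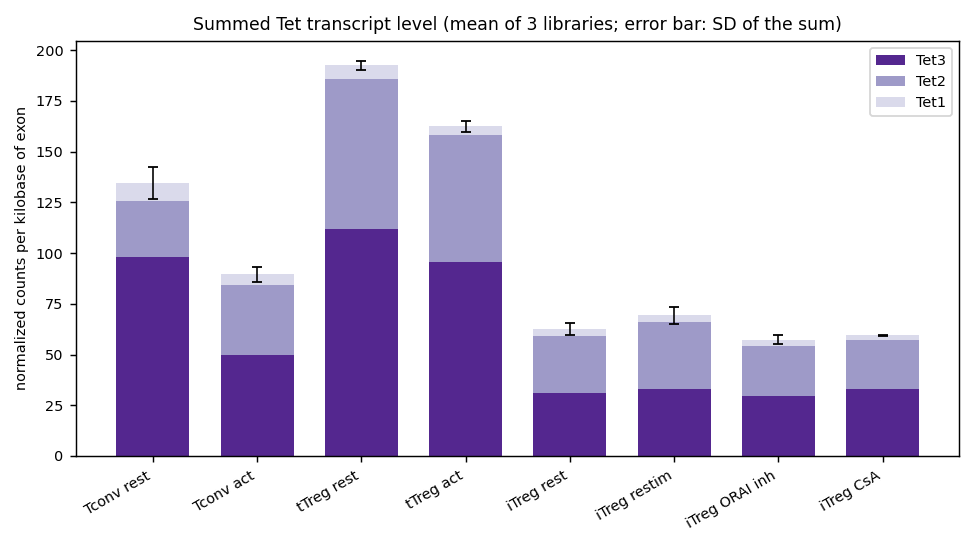
Summed level of Tet1, Tet2 and Tet3 (vertical axis, normalized counts per kilobase of annotated exon) in the 8 groups; each bar stacks the means of 3 libraries and the error bar is the SD of the sum. The sum was 162.5 or more in both tTreg groups and 69.3 or less in the 4 iTreg groups.

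Activation of Tconvs and tTregs was compared next, which asks whether the 2 cell types respond alike to TCR stimulation. Activated Tconvs gained Uhrf1, Dnmt1, Dnmt3a and Dnmt3b and lost Tet1 and Tet3. In activated tTregs Uhrf1 and Dnmt1 rose less and Tet1 fell, while the other 4 members did not pass. In Tconvs 6 of 7 members passed, 4 higher and 2 lower, against 50.2% of all genes tested (24.5% higher, 25.7% lower). In tTregs 3 passed, 2 higher and 1 lower, against 21.9% (11.9% higher, 10% lower). The difference between the 2 responses, tested as an interaction, passed for 6 members, 1 with the higher and 5 with the lower value in tTregs, against 34.7% of all genes (17.7% higher, 17% lower). Between the activated cells themselves 6 members passed, 2 higher and 4 lower in tTregs, against 48.2% of all genes (25.6% higher, 22.6% lower).

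Uhrf1 rose to 1652, 1447 and 1695 normalized counts in activated Tconvs and to 553, 553 and 656 in activated tTregs, from 21.6 to 33.8 and from 89.8 to 104 at rest. Every activated library of a cell type was above its resting libraries. The log2 fold change was 5.73 ± 0.15 in Tconvs (53.2-fold, adjusted p = 2.82e-13) and 2.61 ± 0.15 in tTregs (6.1-fold, adjusted p = 5.34e-08). The tTreg response was smaller by 3.12 ± 0.21 on the log2 scale (interaction −3.12, adjusted p = 3.41e-08), and activated tTregs ended 2.72-fold below activated Tconvs (log2 fold change −1.44 ± 0.15, adjusted p = 8.86e-07).

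Dnmt1 had 2394, 2283 and 2376 normalized counts in activated Tconvs and 1559, 1488 and 1787 in activated tTregs. Activated libraries were above the resting ones in both cell types. The rise in Tconvs was 1.41 ± 0.10 (2.65-fold, adjusted p = 1.71e-08) and that in tTregs 0.54 ± 0.10 (1.45-fold, adjusted p = 0.00103). The tTreg call was near the fold threshold and was lost without resting tTreg replicate 3, at 0.41, without activated tTreg replicate 3, at 0.46, and with quantile normalization, at 0.49. The 2 responses differed by −0.87 ± 0.14 (adjusted p = 0.000237). Of activated cells, tTregs had 1.46-fold less Dnmt1 than Tconvs (−0.55 ± 0.10, adjusted p = 0.000281), at −0.49 without activated tTreg replicate 2.

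Replication genes again moved beside these members. Of the 20 S phase genes 19 rose in Tconvs, with a median log2 fold change of 2.21, and 19 rose in tTregs, with a median of 1.13, where the medians of all genes were −0.04 and 0. Of all genes 24.5% rose in Tconvs and 11.9% in tTregs. The interaction was called lower in tTregs for 17 of the 20, with a median of −1.12, against 17% of all genes. G2 and M genes rose too, 9 of 10 in Tconvs and 10 of 10 in tTregs, and their interaction was called higher for 1, lower for 2 and not called for 7, with a median of −0.73. Between activated cells 17 of the 20 S phase genes were lower in tTregs, with a median of −1.33, and of the G2 and M genes 3 were higher and 5 lower, with a median of −0.55. The G2 and M genes of activated cells stayed far below iTregs, with a median of at most 91.7 normalized counts in any activated library. Their part in the responses of Dnmt1 and Uhrf1 was not tested.

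Dnmt3a and Dnmt3b rose in activated Tconvs and did not pass in activated tTregs. Dnmt3a had 619.6, 554 and 596 normalized counts in activated Tconvs and 427, 451 and 369 in activated tTregs. All activated Tconv libraries were above the resting ones, and the activated tTreg libraries overlapped the resting tTreg libraries. The response was 0.87 ± 0.10 in Tconvs (adjusted p = 3.02e-06) and −0.18 ± 0.10 in tTregs (adjusted p = 0.185), an interaction of −1.06 ± 0.14 (adjusted p = 4.61e-05).

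Dnmt3b showed the same division at lower counts. It had 189, 177 and 134 normalized counts in activated Tconvs and 61.9, 42.6 and 43.6 in activated tTregs. The activated Tconv libraries were all above the resting ones, and the highest activated tTreg library overlapped the resting tTregs. The response was 1.36 ± 0.24 in Tconvs (2.57-fold, adjusted p = 0.000181) and −0.55 ± 0.24 in tTregs (adjusted p = 0.0926), with an interaction of −1.91 ± 0.34 (adjusted p = 0.000483). Without resting tTreg replicate 1 the Dnmt3b value in tTregs was −0.74 and passed (adjusted p = 0.0392). Between activated cells Dnmt3b was 3.34-fold lower in tTregs (−1.74 ± 0.24, adjusted p = 2.05e-05) and Dnmt3a 1.42-fold lower (−0.51 ± 0.10, adjusted p = 0.000581). The Dnmt3a difference fell short of the fold threshold without activated Tconv replicate 1 (−0.47), activated Tconv replicate 3 (−0.50) or activated tTreg replicate 3 (−0.42).

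Tet3 fell in activated Tconvs to 822, 834 and 834 normalized counts and stood at 1726, 1450.3 and 1618 in activated tTregs. The activated Tconv libraries were far below the resting ones, whereas the activated tTreg libraries lay just under theirs, at 1726 against a lowest resting value of 1779. The response was −0.98 ± 0.09 in Tconvs (1.97-fold lower, adjusted p = 2.41e-07) and −0.23 ± 0.09 in tTregs (adjusted p = 0.0625). The interaction was 0.75 ± 0.13 (adjusted p = 0.000302), the only one in which tTregs had the higher value and passed. Activated tTregs accordingly had 1.92-fold more Tet3 than activated Tconvs (0.94 ± 0.09, adjusted p = 5.02e-07).

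Tet2 had 591, 513 and 636 normalized counts in activated Tconvs and 980.4, 1211 and 963 in activated tTregs. Activated tTregs remained above every Tconv library, and overlapped resting tTregs. The response was 0.32 ± 0.11 in Tconvs (adjusted p = 0.0201, under the fold threshold) and −0.25 ± 0.11 in tTregs (adjusted p = 0.0861). The difference of the responses passed at −0.57 ± 0.15 (adjusted p = 0.00889), but was −0.50 and short of the fold threshold without activated Tconv replicate 3 or without resting tTreg replicate 1. Tet2 was 1.81-fold higher in activated tTregs than in activated Tconvs (0.85 ± 0.11, adjusted p = 8.9e-06).

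Tet1 fell in both cell types. It had 83.5, 79.3 and 86.3 normalized counts in activated Tconvs and 45.8, 79.5 and 81.7 in activated tTregs, all below the resting libraries of the same cell. The log2 fold change was −0.74 ± 0.20 in Tconvs (adjusted p = 0.00423) and −0.60 ± 0.20 in tTregs (adjusted p = 0.0268). The tTreg call was lost without activated tTreg replicate 1 (−0.34, adjusted p = 0.12), resting tTreg replicate 1 (−0.55, adjusted p = 0.08) or resting tTreg replicate 2 (−0.58, adjusted p = 0.0703). It was also lost when only the resting and activated tTreg libraries were fitted (adjusted p = 0.125). The responses differed by 0.13, with a 95% interval from −0.46 to 0.72.

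The composition of the Tet sum differed between resting and activated Tconvs, and in tTregs the difference was within the spread. Tet2 went from 20.5% of the summed level per kilobase in resting Tconvs to 38.4% ± 2.51 in activated Tconvs, and from 38.4% ± 2.96 to 38.3% ± 4.77 in tTregs. The sum itself was 89.5 ± 3.88 normalized counts per kilobase in activated Tconvs and 162.5 ± 2.82 in activated tTregs, without overlap of libraries. Dnmt3a made up 60.6% ± 6.08 of the summed Dnmt3a and Dnmt3b level per kilobase in resting Tconvs and 52.3% ± 4.69 in activated Tconvs. In tTregs its share was 66.6% ± 6.77 at rest and 72.2% ± 4.30 after activation. The Dnmt3a shares of single libraries overlapped between resting and activated cells of both types.

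**Figure D5:**
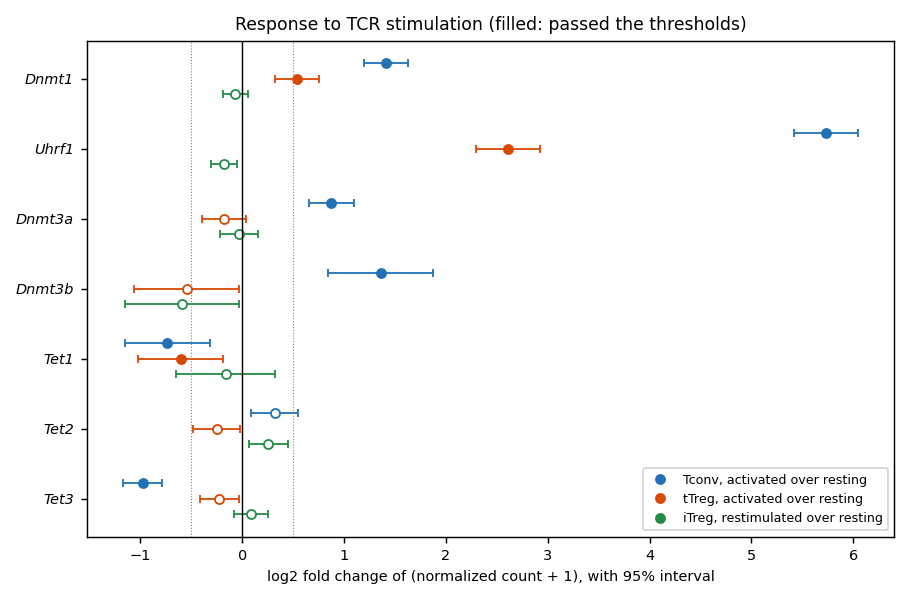
Log2 fold change of each member on stimulation (horizontal axis) in Tconvs, tTregs and iTregs, with 95% intervals; filled points passed the thresholds, and dotted lines mark a log2 fold change of 0.5. Uhrf1 rose by 5.73 in Tconvs and 2.61 in tTregs and stood at −0.18 in iTregs, and no member passed in iTregs.

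Resting iTregs were also set beside activated Tconvs, since both had met TCR stimulation. Of the 7 members 5 passed, 2 higher and 3 lower in iTregs, against 41.6% of all genes (22.9% higher, 18.7% lower). Uhrf1 was 2.68-fold higher (1.42 ± 0.15, adjusted p = 1.1e-06) and Dnmt1 1.74-fold higher (0.80 ± 0.10, adjusted p = 9.41e-06). Dnmt3a was 1.76-fold lower (−0.81 ± 0.10, adjusted p = 8.79e-06), Tet3 1.61-fold lower (−0.68 ± 0.09, adjusted p = 1.4e-05) and Tet1 1.57-fold lower (−0.65 ± 0.20, adjusted p = 0.0108). Dnmt3b stood at −0.57 ± 0.24 and did not pass (adjusted p = 0.0567). It passed without activated Tconv replicate 3 (−0.72), without resting iTreg replicate 2 (−0.74), and under 5 of 13 other alternatives, edgeR (−0.58, adjusted p = 0.0331) and DESeq2 (−0.59, adjusted p = 0.0303) among them. S phase genes were higher in resting iTregs for 13 of 20, with a median of 0.77, and all 10 G2 and M genes were higher, with a median of 4.79, where the median of all genes was 0.02.

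Restimulation of iTregs, the setting in which the study follows their stability, moved no member past the thresholds. This was the count by limma between restimulated and resting iTregs, 0 of 7, where 12.8% of 11105 genes passed. Without adjustment 3 had a p below 0.05, and edgeR and DESeq2 called none. A limma fit with a replicate block called 1, Dnmt3b, though the replicate numbers were not taken to pair the libraries. Uhrf1 and Tet2 passed the adjusted p but not the fold threshold.

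Uhrf1 had 3952, 3800.1 and 3598 normalized counts in restimulated iTregs, all below the resting iTreg libraries, with a log2 fold change of −0.18 ± 0.06 (adjusted p = 0.0342). Dnmt1 had 3873, 3935 and 3912, below the resting libraries by a narrow margin, and its difference was −0.07, with a 95% interval from −0.19 to 0.06. Tet2 had 569, 512 and 608, all above the resting iTreg libraries, with a log2 fold change of 0.25 ± 0.09 (adjusted p = 0.0464).

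Dnmt3b had 76.5, 105 and 48.1 normalized counts in restimulated iTregs, overlapping the resting ones. Its value was −0.59 ± 0.26 (adjusted p = 0.104), and −0.85 without restimulated iTreg replicate 2 (adjusted p = 0.0284). Each restimulated library was below the resting library of the same number, and with a replicate block Dnmt3b passed (limma, adjusted p = 0.00483). No source used here says that the numbers pair the libraries. The intervals of Dnmt3a and Tet3 ran from −0.22 to 0.15 and from −0.08 to 0.25, so that a change as large as the fold threshold lay outside them. The interval of Tet1, from −0.65 to 0.33, did not have this precision. On restimulation 0 of 20 S phase genes and 0 of 10 G2 and M genes passed (limma), with medians of −0.21 and −0.30, and 11 and 8 of them had an unadjusted p below 0.05.

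The response of iTregs to restimulation was tested against that of tTregs to activation. Of the members 3 passed, 1 higher and 2 lower in iTregs, against 21.3% of 11725 genes (9.01% higher, 12.3% lower). Uhrf1 differed by −2.79 ± 0.17 (adjusted p = 2.65e-10) and Dnmt1 by −0.61 ± 0.12 (adjusted p = 0.000975), the latter at −0.48 without resting tTreg replicate 3. Tet2 differed by 0.50 ± 0.14 (adjusted p = 0.0126). This call sat on the fold threshold and was lost in 6 of 12 fits that left out a library, at values from 0.43 to 0.50, with DESeq2 and when only the 4 groups concerned were fitted (adjusted p = 0.0523). Of the S phase genes 18 of 20 had the lower response in iTregs, with a median of −1.34, and of the G2 and M genes 10 of 10, with a median of −2.33. The comparison sets a renewed stimulation of cultured cells against the stimulation of cells from the spleen, and these cannot be told apart from the cell type.

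The end points of stimulation were also compared. Restimulated iTregs had 6.45-fold more Uhrf1 than activated tTregs (2.69 ± 0.12, adjusted p = 2.21e-14) and 2.43-fold more Dnmt1 (1.28 ± 0.09, adjusted p = 2.68e-11). They had 2.9-fold less Tet3 (−1.54 ± 0.08, adjusted p = 2.57e-13) and 1.86-fold less Tet2 (−0.90 ± 0.10, adjusted p = 9.03e-08). In all 5 members passed, 2 higher and 3 lower, against 59.3% of all genes (30.5% higher, 28.8% lower), the fifth being Tet1 at −0.50 ± 0.22 (adjusted p = 0.0472). The Tet1 call was lost without activated tTreg replicate 2 (−0.38), activated tTreg replicate 3 (−0.36), restimulated iTreg replicate 1 (−0.34) or restimulated iTreg replicate 3 (−0.48), and it held under 6 of 12 other alternatives. Against activated Tconvs 6 members passed, 2 higher and 4 lower, against 44.3% of all genes (24.4% higher, 20% lower). Dnmt3a was 1.8-fold lower (−0.85 ± 0.09, adjusted p = 6.16e-08) and Dnmt3b 2.24-fold lower (−1.16 ± 0.27, adjusted p = 0.000805), whereas at rest the iTreg value over Tconvs had been 0.06 for Dnmt3a and 0.79 for Dnmt3b. Tet2 did not pass, at −0.04 with a 95% interval from −0.25 to 0.17. Against activated tTregs all 20 S phase genes and all 10 G2 and M genes were higher in restimulated iTregs, with medians of 2.30 and 4.96, and against activated Tconvs 13 and 10 were, with medians of 0.66 and 4.49.

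Inhibitors of calcium entry and of calcineurin were compared with restimulation alone, which asks which transcripts depend on this signal. No member passed the thresholds with limma in either comparison, where 3.3% of 11105 genes passed for the ORAI inhibitor and 2.92% for CsA. By unadjusted p 1 member was below 0.05 in each, and edgeR and DESeq2 called none in either. That member was Tet2 in both, and both comparisons share the 3 restimulated libraries.

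Tet2 had 410.1, 442 and 395 normalized counts with the ORAI inhibitor and 381, 447 and 397 with CsA, against 569, 512 and 608 without inhibitor. Each treated library was below each untreated one. The log2 fold change was −0.43 ± 0.09 with the ORAI inhibitor (1.35-fold lower, adjusted p = 0.00717) and −0.46 ± 0.09 with CsA (1.38-fold lower, adjusted p = 0.00534). Both passed the adjusted p and missed the fold threshold of 0.5. Without restimulated iTreg replicate 2 they passed it, at −0.50 and −0.53, and the CsA value was −0.53 without CsA replicate 2. The treated levels lay near or below those of resting iTregs, which had 432 to 506. As a share of the summed Tet level per kilobase, Tet2 was 48.1% ± 2.22 after restimulation, 43.0% ± 1.09 with the ORAI inhibitor and 40.7% ± 3.22 with CsA.

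None of the other 6 members passed the adjusted p under either inhibitor. Dnmt1 differed from restimulation alone by 0.01 with the ORAI inhibitor (95% interval −0.12 to 0.13) and by −0.06 with CsA (−0.19 to 0.07). Uhrf1 differed by 0.02 (−0.11 to 0.14) and by −0.10 (−0.23 to 0.02). Differences of the size of the fold threshold are outside these intervals. Dnmt3b and Tet1 were less precise, with intervals that reached from −0.32 to 0.80 and from −0.52 to 0.45 for the ORAI inhibitor. When the 2 inhibitors were compared directly, no member passed (limma, 0 of 7 passed, 0 had an unadjusted p below 0.05, and edgeR and DESeq2 called none), where 0.36% of all genes passed. For Tet2 the difference was 0.03, with a 95% interval from −0.17 to 0.22. Doses are not given in the sources used here for these libraries.

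Partners of the members were described by fixed lists, to be read against all genes tested. Between resting iTregs and resting tTregs 32.3% of all genes were higher and 31.1% lower, in activated Tconvs 24.5% rose and 25.7% fell, and in activated tTregs 11.9% rose and 10% fell, with medians of 0.02, −0.04 and 0. Of 10 partners of maintenance methylation, 8 could be tested, and 5 were higher and 2 lower in resting iTregs than in resting tTregs, with a median log2 fold change of 1.78. Hells, the chromatin remodeler that helps methylation of packed DNA, had 1122 ± 26.0 normalized counts (SD, n = 3) in resting iTregs against 54.2 ± 9.42 in resting tTregs (4.36, adjusted p = 9.2e-12). Lig1, the ligase that joins Okazaki fragments and is bound by Uhrf1, had 2540.2 ± 31.1 against 224 ± 23.8 (3.50, adjusted p = 1.17e-12). In activated Tconvs 4 of the 8 rose and 2 fell, with a median of 0.79. Cdca7, the partner of Hells, rose most, to 1599.9 ± 35.0 from 85.7 ± 19.1 normalized counts (4.23, adjusted p = 3.47e-12), ahead of Hells itself (3.88, adjusted p = 6.16e-11). In activated tTregs 3 rose and none fell, with a median of 0.12, led by Hells (2.19, adjusted p = 6.57e-07) and Lig1 (1.40, adjusted p = 7.83e-07).

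Readers of methyl-CpG were mostly lower in resting iTregs than in resting tTregs, where 31.1% of all genes were lower. Of 7 readers, 5 were lower and 1 was higher in resting iTregs than in resting tTregs, with a median of −0.98. Zbtb4 had 179 ± 24.7 normalized counts in resting iTregs against 585 ± 124 (−1.69, adjusted p = 7.62e-08), and Zbtb38 had 932 ± 162 against 2999 ± 441 (−1.69, adjusted p = 5.62e-08). Both are zinc finger repressors that bind methylated CpG. Mbd3, which was chosen for mention after its value was seen because it alone was higher, stood at 1.22 ± 0.14 (adjusted p = 2.25e-06), and it is known to bind methylated DNA only weakly in mammals. In activated Tconvs 3 readers fell and none rose, with a median of −0.39, Zbtb4 (−1.68, adjusted p = 1.42e-07) and Zbtb38 (−1.56, adjusted p = 2.31e-07) most, where 25.7% of all genes fell. In activated tTregs 3 fell and none rose, with a median of −0.38, and Zbtb4 was again first (−1.27, adjusted p = 2.48e-05).

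A fixed list of genes linked to excision and repair after Tet oxidation was split, and the part of its genes in that step was not tested. Between resting iTregs and resting tTregs, 8 of 15 were higher and 6 lower, with a median of 0.59. Neil3, a glycosylase, had 376 ± 35.0 normalized counts in resting iTregs and 2.2 ± 3.06 in resting tTregs, where it was at the floor. Gadd45g, a stress protein linked to active demethylation, had 139 ± 13.8 normalized counts in resting tTregs against 14.0 ± 4.63 in resting Tconvs (3.26, adjusted p = 8.15e-09), a comparison in which 4 of the 15 were higher and 2 lower, against 20.5% and 18.2% of all genes. On restimulation of iTregs, 2 of 13 tested rose and none fell, where 12.8% of all genes passed in either direction. These were Gadd45g, at 1356 ± 48.6 against 651 ± 53.4 (1.06, adjusted p = 8.31e-08), and Gadd45b, at 219 ± 16.0 against 125 ± 9.58 (0.80, adjusted p = 2.23e-05). Gadd45g was higher still with CsA (0.55, adjusted p = 0.000355) and differed between the ORAI inhibitor and CsA, by −0.69 (adjusted p = 0.000185).

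Supply of the methyl donor was described likewise. Of 10 listed, 8 could be tested, and between resting iTregs and resting tTregs 1 was higher and 2 were lower, with a median of −0.002. The higher gene was Ahcy, which clears the product that inhibits methyltransferases, at 6040.0 ± 59.5 against 1064 ± 42.7 normalized counts (2.5, adjusted p = 8.55e-13). Ahcy also rose in activated Tconvs (0.82, adjusted p = 2.02e-07) and in activated tTregs (0.71, adjusted p = 9.34e-06). Mat2a, which makes the donor S-adenosylmethionine, fell on restimulation of iTregs, to 2199 ± 131 from 3425 ± 125 (−0.64, adjusted p = 2.62e-06).

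Of 17 genes of Tet cofactor supply and Tet modifiers, 15 could be tested. Between resting iTregs and resting tTregs 3 were higher and 6 lower, with a median of −0.06, and in activated Tconvs 3 rose and 6 fell, with a median of −0.37. Only 1 of the 15 passed in activated tTregs. Idh2, which makes the Tet cosubstrate alpha-ketoglutarate in mitochondria, had 184 ± 131 normalized counts in resting tTregs, with a wide spread, against 1063 ± 41.6 in resting Tconvs and 648 ± 29.3 in resting iTregs.

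Genes whose levels ran most like each member were found over the 24 libraries, among 8309 genes with a mean of at least 100 normalized counts. For Dnmt1 they were Lig1, Cit and Tfdp1, with Pearson's r of 0.993, 0.991 and 0.991 (log2 scale). For Uhrf1 they were Chaf1b, Psrc1 and Fignl1, with r of 0.992, 0.991 and 0.991. Lig1 is also on the list of maintenance partners, and Chaf1b is a subunit of the assembly factor that places histones behind the fork. For Dnmt3a the nearest were Ncoa7, Zfp281 and Mllt3 (0.943, 0.943 and 0.941). For Tet1 they were Zfp39, Abhd6 and Zfp959 (0.940, 0.937 and 0.933), for Tet2 Slc5a3, Cux1 and Snap23 (0.965, 0.954 and 0.951) and for Tet3 Ttc28, Ankrd12 and Fcho2 (0.988, 0.987 and 0.987). Dnmt3b had no close companion, with r of 0.793 for Myo6 at most. These r values are descriptions over libraries that share 8 groups, and most of the spread of each gene lay between groups.

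Among the members themselves, Dnmt1 and Uhrf1 ran together (r = 0.98), and Tet3 ran against them, with r of −0.96 to Dnmt1 and −0.90 to Uhrf1. Tet1 and Tet3 ran together with r of 0.78, and Tet2 and Tet3 with r of 0.72. Dnmt3a and Dnmt3b were related by r of 0.31 only. The range of group means was widest for Uhrf1, at 145-fold between resting Tconvs and resting iTregs, and narrowest for Dnmt3a, at 2.02-fold between CsA-treated iTregs and activated Tconvs. The other members spanned 3.06-fold for Tet2, 3.37-fold for Dnmt3b, 3.68-fold for Tet1, 3.77-fold for Tet3 and 4.63-fold for Dnmt1.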

How the data were processed

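RNA-seq libraries of 8 groups of mouse T cells with 3 replicates each were used; the other 16 of the 40 samples were not analysed here. Per the submitters' processing notes and the study's methods, SMART-seq2 reads were trimmed with cutadapt 1.18, aligned with STAR 2.5.3, counted with RSEM 1.3.0 and normalized with DESeq2 1.26, on mm10 (GRCm38). The authors deposited a normalized signal, gene counts divided by 1 size factor per library. In every library 100% of values were whole multiples of 1 read (tolerance 0.001), which gave depth and reads. Groups were taken from the sample labels.

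A gene was tested where 3 or more libraries of a fit had 10 or more normalized counts, on log2(normalized count + 1) with limma 3.58.1 with a trend (R 4.3.3) and Benjamini-Hochberg adjustment over all genes. The fits held 15 libraries (Tconv, tTreg and resting iTreg), 12 (iTreg) or all 24. The thresholds, those of the study's methods, were 0.05 for the adjusted p and 0.5 for the log2 fold change in either direction; with the pseudocount of 1, changes of low genes are understated. The test was checked on simulated data. Levels per kilobase used the union of GENCODE vM21 exons. Named genes were the 7 members, the 2 largest changes among called genes of each list, of which only some are printed, and the 3 genes most correlated with each member. Members and lists were chosen with earlier results of these data known. Alternatives were scaling, pseudocount, filter, thresholds, groups fitted, a replicate block, each library left out and, chosen after seeing the data, edgeR 4.0.16 and DESeq2 1.42.0 on the recovered reads. Intervals and floors of reads cover counting error only where they come from counts.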

Additional observations from a re-analysis of the deposited data

Results flagged for a closer look

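The response to activation differed between tTregs and Tconvs for 6 of the 7 members by the interaction test in limma. Of all 11495 genes tested 34.7% passed the same test. On the log2 scale the tTreg response minus the Tconv response was −3.12 for Uhrf1, −1.91 for Dnmt3b, −1.06 for Dnmt3a, −0.87 for Dnmt1, −0.57 for Tet2 and 0.75 for Tet3. For Dnmt1 and Uhrf1 both cell types rose. For Dnmt3a and Dnmt3b only the rise in Tconvs passed, and for Tet3 only the fall in Tconvs.

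The response of iTregs to restimulation differed from the response of tTregs to activation for 3 of the 7 members by the same kind of test. Of all 11725 genes tested 21.3% passed it. The iTreg response minus the tTreg response was −2.79 for Uhrf1, −0.61 for Dnmt1 and 0.505 for Tet2. For Tet2 neither response passed the thresholds by itself. This comparison and the first share the 6 tTreg libraries.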

How the results depend on the processing

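Of 105 tests of members, 54 passed, and none of those 54 changed sign under any of 13 alternatives or with a library left out. Under every alternative other than a log2 fold change above 1, 48 passed, and 44 passed with each library left out. Of the 51 that did not pass, 16 changed sign at least once, among them Tet2 between resting iTregs and resting Tconvs, at −0.0046 with quantile normalization and from −0.028 to 0.085 with a library left out. With a log2 fold change above 1 the members that passed numbered 3 in activated Tconvs, 1 in activated tTregs, 3 in the difference of these responses, 2 between activated tTregs and activated Tconvs, 1 between resting iTregs and activated Tconvs, 3 and 2 for restimulated iTregs against activated tTregs and against activated Tconvs, and 1 in the difference between the iTreg and tTreg responses. Calls between resting cells were lost at that threshold as well. These were Dnmt3b in iTregs against Tconvs, Dnmt3b and Tet1 in iTregs against tTregs, and Dnmt3a in tTregs against Tconvs. With the adjusted p alone 2 passed on restimulation, 1 with the ORAI inhibitor and 1 with CsA. With a library left out 0 to 1 passed in each of these 3 comparisons. The share of all genes passing under these other settings was not computed, so these counts cannot be read against a background.

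The replicate numbers were not taken to pair the libraries, since not every same-numbered pair had an r of its deviations over 0.1. True pairs could also miss that mark, so it cannot exclude pairing, and no source used here says whether the numbers pair. In the 15-library fit same-numbered libraries had a mean r of −0.007, with 6 of 30 over 0.1, and others 0.003, with 12 of 60. In the iTreg fit these were 0.152, with 10 of 18, and −0.075, with 4 of 36, and 10 of 12 libraries correlated best with their own number, a hint from the data and not from the design. A fit with a replicate block gave 1 member on restimulation, Dnmt3b (−0.59, adjusted p = 0.00483), which was lower in each of the 3 same-numbered restimulated libraries, and between restimulated iTregs and activated tTregs it gained Dnmt3b (adjusted p = 0.0387) and lost Tet1 (adjusted p = 0.0564). It changed no other call.

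Shares per kilobase moved with the longest transcript in place of all exons. In the order resting and activated Tconv, resting and activated tTreg, resting iTreg, restimulated iTreg, ORAI inhibitor and CsA, Tet1 shares became 4.62%, 3.98%, 2.27%, 1.81%, 3.59%, 2.91%, 3.43% and 2.72%. Tet2 shares became 24.1%, 43.5%, 43.2%, 43.0%, 50.1%, 53.3%, 48.2% and 45.7%. Tet3 shares moved by more than the replicate SD in activated Tconvs (52.5%), resting tTregs (54.5%), restimulated iTregs (43.8%), ORAI inhibitor (48.4%) and CsA (51.6%). Dnmt3a shares became 69.1%, 61.4%, 74.2%, 79.0%, 57.4%, 66.2%, 62.9% and 63.2%. The length fell from 15457 to 14369 bases for Tet1, from 16870 to 9179 for Tet2 and from 16695 to 10904 for Tet3. It fell from 16642 to 9685 for Dnmt3a and from 5106 to 4320 for Dnmt3b, so lengths did not shrink in proportion. Depth limited Dnmt3b and Tet1, at 24 and 27 reads at the least, and Uhrf1 in resting Tconvs, at 21.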
